A study of Homo sapiens with 8 samples.

Results

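The genes described here are 8 regulators of the antioxidant response element (ARE), the short DNA motif in front of many genes of redox defence, glutathione and haem metabolism. They are NFE2L2 (which encodes NRF2), NFE2L1 (NRF1), BACH1, KEAP1, CUL3 and the small MAF genes MAFF, MAFG and MAFK. They were chosen by name as regulators rather than targets of the element, and all 8 were found among the 62700 rows of the deposited count table. Poly-A RNA was measured in foam cells made from THP-1, a human monocytic leukaemia line, in 4 libraries with 0.5 µM auranofin (AF) and 4 with the vehicle dimethyl sulfoxide (DMSO, under 0.1%). All cells in both groups had received phorbol ester (PMA, 50 ng/mL for 72 h), which turns THP-1 into macrophages, and acetylated LDL for 48 h, which loads them with cholesteryl ester. The sample protocol puts the start of AF or DMSO 24 h before the lipid and keeps it on, whereas the design text of the series places the drug after loading. Auranofin is a gold-containing drug whose best known target is thioredoxin reductase. THP-1 is a single leukaemia line, and the labels do not state whether the libraries are separate cultures, so the p-values cover library-to-library spread that may be technical. The library names share a stem in pairs, replicates 1 with 2 and 3 with 4 in each group, so each group may rest on 2 cultures or RNAs rather than 4.

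NRF2 is a basic leucine zipper factor that binds the ARE as a dimer with a small MAF protein. In unstressed cells KEAP1 holds NRF2 and, through the CUL3 ubiquitin ligase, has it degraded, and electrophiles that modify cysteines of KEAP1 interrupt this. BACH1 pairs with the same small MAF proteins and represses genes such as HMOX1 until haem binds it, and NRF1 is a related factor of the endoplasmic reticulum known for driving proteasome genes. Much of this control acts on protein, which messenger RNA counts do not measure.

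Promoters of 4 members are shown because 3 of them belong to genes that were higher with AF and the fourth, of KEAP1, holds the only pair of ARE cores found. Each runs from 250 bases before to 50 after a start site, 5′ to 3′ on the gene's strand, from RefSeq on GRCh38.p14. A window was found for 7 of the 8 members, all but MAFK. Capitals mark matches, on either strand, to the ARE core TGACNNNGC, to the TRE TGANTCA (a site for AP-1 and related zipper dimers) or to the CRE TGACGTCA (a site for CREB and ATF dimers). The matches found did not overlap one another.
BACH1, chr21:29298672-29298971, plus strand: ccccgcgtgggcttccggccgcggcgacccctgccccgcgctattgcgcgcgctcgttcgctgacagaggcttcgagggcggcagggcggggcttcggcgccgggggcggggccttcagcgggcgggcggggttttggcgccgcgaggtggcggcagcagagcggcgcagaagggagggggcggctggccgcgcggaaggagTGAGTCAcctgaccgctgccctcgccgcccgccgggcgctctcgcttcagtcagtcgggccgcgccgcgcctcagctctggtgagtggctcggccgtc
MAFF, chr22:38201744-38202043, plus strand: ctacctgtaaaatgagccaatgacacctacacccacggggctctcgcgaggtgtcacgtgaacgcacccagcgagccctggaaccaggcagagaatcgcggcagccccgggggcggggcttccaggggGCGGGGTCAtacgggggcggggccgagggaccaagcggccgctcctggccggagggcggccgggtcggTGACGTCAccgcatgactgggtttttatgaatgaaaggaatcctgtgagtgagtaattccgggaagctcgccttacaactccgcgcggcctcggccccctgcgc
NFE2L2, chr2:177264678-177264977, minus strand: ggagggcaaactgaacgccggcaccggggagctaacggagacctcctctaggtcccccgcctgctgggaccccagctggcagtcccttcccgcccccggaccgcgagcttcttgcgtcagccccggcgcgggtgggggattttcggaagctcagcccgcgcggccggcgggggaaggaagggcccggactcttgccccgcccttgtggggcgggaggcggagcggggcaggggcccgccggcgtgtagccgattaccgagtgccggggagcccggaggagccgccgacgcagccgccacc
KEAP1, second start site, chr19:10502722-10503021, minus strand: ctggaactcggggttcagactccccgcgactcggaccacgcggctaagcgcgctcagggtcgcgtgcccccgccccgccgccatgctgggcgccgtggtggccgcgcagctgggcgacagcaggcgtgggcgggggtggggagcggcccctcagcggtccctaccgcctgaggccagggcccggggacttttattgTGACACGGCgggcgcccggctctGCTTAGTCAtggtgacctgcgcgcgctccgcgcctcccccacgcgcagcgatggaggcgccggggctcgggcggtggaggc
The BACH1 window held 1 TRE, whose first base lay 48 bases before the start site. MAFF had 1 ARE core on the opposite strand, 122 bases before the start, and 1 CRE 54 bases before it. The second KEAP1 window held an ARE core on each strand, 54 and 31 bases before the start. No match was found in the NFE2L2 window shown, nor in any other of the 14 windows of members. Among 35116 RefSeq windows of 300 bases, 13.3% held an ARE core, 7.71% a TRE and 1.85% a CRE. These matches describe letters and are not evidence of binding.

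The deposited counts summed to between 19336073 and 32325981 per library. Ribosomal RNA entries, not counting those of mitochondria, made up 34.8% of counts in AF replicate 1 and 0.743% to 0.963% in the other 7. Where calls in a gene list changed without AF replicate 1, its paragraph says so. All 12 myeloid markers, among them CD14, CSF1R and SPI1, stood at 27.8 CPM or more in every library (counts-per-million units after TMM scaling, which adjusts for a few dominant transcripts). They summed to 4343 to 4885.5 CPM with AF and to 4865 to 5711 CPM with DMSO. Of 25 markers of T cells, B cells, red cells, epithelium, fibroblasts and endothelium, 6 had no count in any library and 22 stayed under 1 CPM in all. The fibroblast and endothelial list summed to 4.33 to 5.36 CPM with AF and 5.36 to 6.70 CPM with DMSO, and each of the others to at most 1.92 CPM in any library. Of the myeloid markers 3 rose and 3 fell (2 and 4 without AF replicate 1, 3 and 4 in DESeq2), and their part in the results below was not tested. By the same adjusted p of 0.05, 7.62% of all genes tested rose and 7.81% fell.

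Auranofin foam cells had more messenger RNA for NRF2, for its competitor BACH1 and for the small MAF partners MAFF and MAFK. These 4 of the 8 members passed an adjusted p of 0.05 in edgeR's quasi-likelihood test, all of them higher with AF. The other 4, NFE2L1, KEAP1, CUL3 and MAFG, did not pass. Across the 17535 genes tested, 7.62% passed higher with AF, 7.81% lower and 15.4% in either direction. The 4 called genes were also those whose AF and DMSO values did not overlap, which 9.86% of all genes showed in this direction. The median log2 fold change was 0.24 over the 8 members and 0.005 over all genes tested. The same 4 genes were called without AF replicate 1, and leaving out any other single library also left 4 called. With the 2 libraries of each name stem summed, the same 4 passed (edgeR, adjusted p = 0.00681 for NFE2L2, 0.00189 for BACH1, 0.00641 for MAFF and 0.00918 for MAFK). In bulk RNA, a larger share of one kind of cell and more RNA per cell cannot be told apart.

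**Figure D1:**
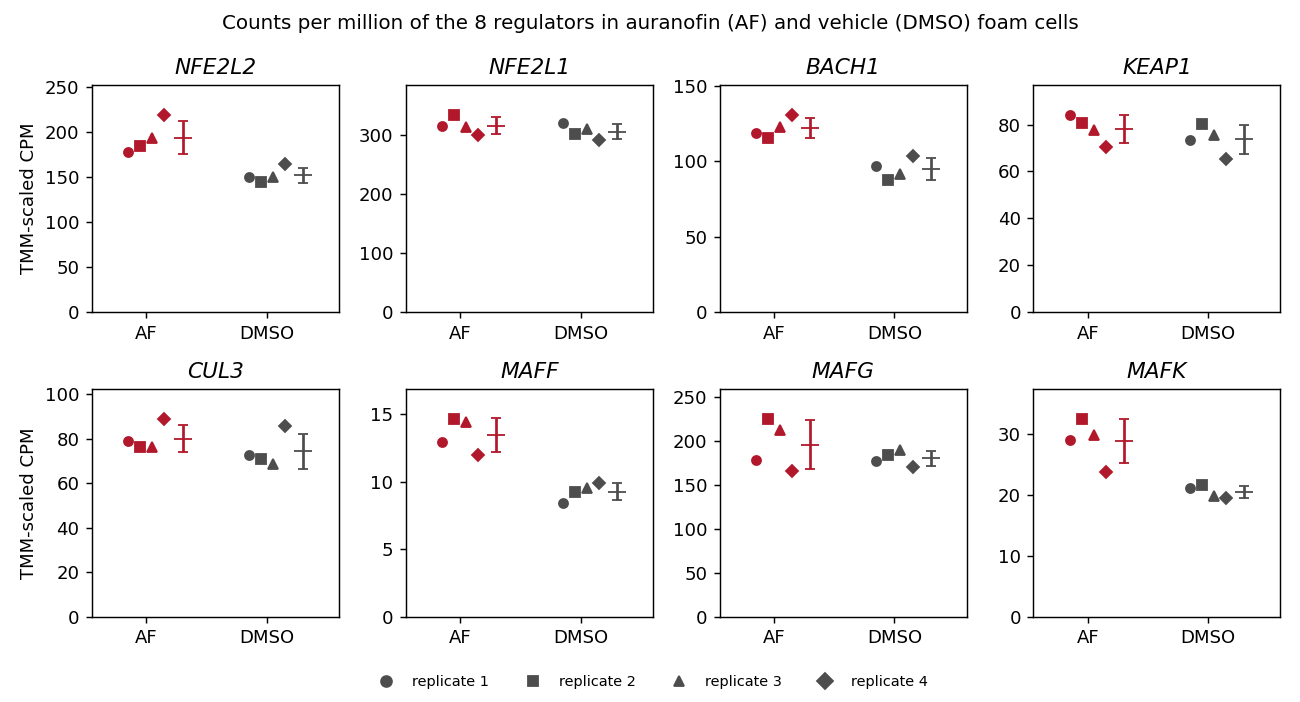
TMM-scaled CPM of each regulator by library, AF left and DMSO right, with the replicate number as symbol and the group mean ± SD beside the points (n = 4 each). NFE2L2, BACH1, MAFF and MAFK have every AF library above every DMSO library, whereas the groups overlap for NFE2L1, KEAP1, CUL3 and MAFG.

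NFE2L2 stood at 178, 184, 194 and 219 CPM with AF, in the order of replicates 1 to 4, against 150.0, 144, 149.7 and 164 CPM with DMSO in that order. Every AF library was above every DMSO library, and replicate 4 was the highest of each group. The means were 194 ± 18.2 CPM with AF and 152 ± 8.54 CPM with DMSO (SD, n = 4 each). The log2 fold change was 0.35 ± 0.07 (SE; edgeR, adjusted p = 0.00269), a 1.28-fold difference with a 95% interval of 0.21 to 0.49 on the log2 scale. With each library left out in turn the log2 fold change ranged from 0.29 to 0.39 and the adjusted p did not exceed 0.0136. NFE2L2 (ENSG00000116044.15) spans chromosome 2 from 177227595 to 177392697 on the minus strand of GRCh38 in GENCODE 29, and 17.6% of its exon bases there also belong to a sense-overlapping transcript. AGPS, which overlaps its exons on the other strand, had 1171 to 2025 counts per library.

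NFE2L1, the second activator, did not pass the test. It stood at 316, 334.5, 314 and 299.6 CPM with AF, in the order of replicates 1 to 4, against 319.98, 302, 309 and 291 CPM with DMSO in that order. The groups overlapped, with AF replicate 2 above every DMSO library and DMSO replicate 4 below every AF library. The log2 fold change was 0.05 ± 0.06 (adjusted p = 0.648, edgeR), with a 95% interval of -0.08 to 0.18, and it was 0.02 without AF replicate 2 and 0.073 without AF replicate 4. NFE2L1 (ENSG00000082641.15) lies on chromosome 17 from 48048329 to 48061487.

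BACH1, the repressor, rose with AF to about the same extent as NFE2L2. Its values were 119, 115, 123 and 131 CPM with AF, in the order of replicates 1 to 4, against 97.0, 87.4, 91.4 and 104 CPM with DMSO in that order. The lowest AF library stood above the highest DMSO library, which was replicate 4. Means were 122 ± 6.74 CPM with AF and 94.9 ± 7.08 CPM with DMSO (SD, n = 4 each), a log2 fold change of 0.36 ± 0.06 (edgeR, adjusted p = 0.00145; 95% interval 0.23 to 0.49). Leaving out single libraries gave 0.32 to 0.41 with an adjusted p of at most 0.00695. In the annotation BACH1 (ENSG00000156273.15) runs over chromosome 21 from 29194071 to 29630751, and 3.91% of its exon bases overlap LINC00189, which had no counts.

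KEAP1 and CUL3, the adaptor and the scaffold of the ligase that removes NRF2, did not pass. KEAP1 stood at 84.2, 80.6, 77.7 and 70.3 CPM with AF, in the order of replicates 1 to 4, against 73.6, 80.3, 75.6 and 65.5 CPM with DMSO in that order. Its log2 fold change was 0.08 ± 0.07 (adjusted p = 0.464, edgeR; 95% interval -0.07 to 0.23), with 0.031 without DMSO replicate 4 and 0.13 without AF replicate 4. The groups overlapped, and replicate 4 was the lowest of each. CUL3 stood at 78.8, 76.2, 76.1 and 88.9 CPM with AF, in the order of replicates 1 to 4, against 72.7, 70.6, 68.4 and 85.9 CPM with DMSO in that order. The DMSO library with most CUL3, replicate 4, exceeded 3 of the 4 AF libraries. The log2 fold change of CUL3 was 0.10 ± 0.07 (adjusted p = 0.377, edgeR; 95% interval -0.05 to 0.26), with 0.051 without AF replicate 4 and 0.18 without DMSO replicate 4. KEAP1 (ENSG00000079999.13) is on chromosome 19 from 10486120 to 10503741 and CUL3 (ENSG00000036257.12) on chromosome 2 from 224470150 to 224585397.

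The small MAF proteins lack an activation domain and serve as the DNA-binding partners of NRF2, NRF1 and BACH1. MAFF had the largest log2 fold change of the 8 members. It stood at 12.9, 14.6, 14.4 and 12.0 CPM with AF, in the order of replicates 1 to 4, against 8.38, 9.19, 9.54 and 9.90 CPM with DMSO in that order. The groups were apart, with AF replicate 4 nearest to DMSO. Means were 13.5 ± 1.26 CPM with AF and 9.25 ± 0.647 CPM with DMSO (SD, n = 4 each), a log2 fold change of 0.55 ± 0.09 (edgeR, adjusted p = 0.00139; 95% interval 0.35 to 0.75). Of all genes tested, 10.0% had a larger absolute log2 fold change than MAFF. That share was 12.6% for MAFK, 21.0% for BACH1 and 21.8% for NFE2L2. MAFF had 206 to 494 counts per library, the fewest of the members.

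MAFK stood at 29.03, 32.5, 29.8 and 23.8 CPM with AF, in the order of replicates 1 to 4, against 21.0, 21.6, 19.8 and 19.5 CPM with DMSO in that order. As for MAFF, every AF library was above every DMSO library and AF replicate 4 was the lowest of its group. Means were 28.8 ± 3.63 CPM with AF and 20.5 ± 0.992 CPM with DMSO (SD, n = 4 each), a log2 fold change of 0.49 ± 0.11 (edgeR, adjusted p = 0.00608; 95% interval 0.26 to 0.71). Without single libraries MAFF ranged from 0.50 to 0.60 (adjusted p at most 0.00829) and MAFK from 0.43 to 0.57 (at most 0.0236). In the annotation 18.2% of the exon bases of MAFK are overlapped on the other strand by TMEM184A, which had at most 1 count per library. MAFF (ENSG00000185022.11) lies on chromosome 22 from 38200767 to 38216511 and MAFK (ENSG00000198517.9) on chromosome 7 from 1530714 to 1543043.

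MAFG, itself known as an ARE target, did not pass. It stood at 179, 225, 213 and 166 CPM with AF, in the order of replicates 1 to 4, against 178, 184, 189.85 and 170.1 CPM with DMSO in that order. AF replicates 2 and 3 were above every DMSO library, AF replicate 1 lay within the DMSO range and AF replicate 4 below it. The SD was 27.9 CPM with AF and 8.53 CPM with DMSO, around means of 196 CPM and 180.5 CPM. The log2 fold change was 0.12 ± 0.08 (adjusted p = 0.367, edgeR; 95% interval -0.06 to 0.30). With 1 library left out it ranged from 0.044 without AF replicate 2 to 0.19 without AF replicate 4, and it stayed uncalled in each of those fits (adjusted p of 0.0813 or more). MAFG (ENSG00000197063.10) is on chromosome 17 from 81918270 to 81927714, where 2.01% of its exon bases overlap SIRT7 on the same strand, a gene with 385 to 716 counts per library.

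**Figure D2:**
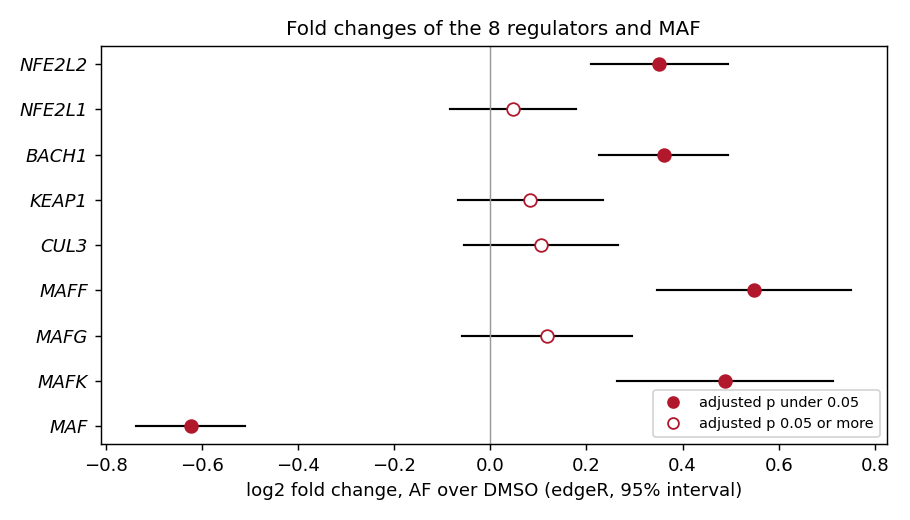
Log2 fold change of AF over DMSO with its 95% interval (edgeR) for the 8 regulators and, below them, MAF. Filled points mark an adjusted p under 0.05. NFE2L2, BACH1, MAFF and MAFK lie between 0.35 and 0.55, and MAF at -0.62.

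Ratios between members within a library do not depend on scaling between libraries, and 7 were computed as descriptions without a test. The log2 ratio of BACH1 to NFE2L2 counts was -0.67 ± 0.07 with AF and -0.68 ± 0.04 with DMSO (SD, n = 4 each), a difference of 0.01 that is smaller than either SD. The ratio of NFE2L2 to KEAP1 was 1.08, 1.19, 1.32 and 1.64 on the log2 scale with AF, in the order of replicates 1 to 4, against 1.03, 0.84, 0.98 and 1.32 with DMSO in that order. These groups overlapped. Their means differed by 0.26, or by 0.15 without AF replicate 4. BACH1 to KEAP1 gave 0.64 ± 0.19 with AF and 0.36 ± 0.23 with DMSO, again with overlap. NFE2L2 to NFE2L1 gave -0.71 ± 0.19 with AF and -1.01 ± 0.12 with DMSO, where DMSO replicate 4 (-0.83) alone reached into the AF range of -0.86 to -0.45. KEAP1 to CUL3 gave -0.03 ± 0.21 with AF and -0.01 ± 0.26 with DMSO.

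Within the small MAF genes, MAFF and MAFK took a larger proportion relative to MAFG in every AF library than in any DMSO library. The log2 ratio of MAFF to MAFG ranged from -3.94 to -3.79 with AF and from -4.41 to -4.10 with DMSO. That of MAFK to MAFG ranged from -2.84 to -2.62 with AF and from -3.26 to -3.08 with DMSO. Without single libraries the differences in mean stayed at 0.39 to 0.49 for MAFF and 0.33 to 0.40 for MAFK. Per kilobase of exon, MAFG made up 80.9 ± 0.905% of the summed small MAF level with AF and 84.7 ± 0.599% with DMSO. MAFK made up 13.9 ± 0.802% with AF and 11.3 ± 0.566% with DMSO, and MAFF 5.20 ± 0.228% with AF and 4.04 ± 0.360% with DMSO (SD, n = 4 each). MAFG was the commonest small MAF transcript in all 8 libraries. The summed counts of the 3 genes were 202 to 273 CPM with AF and 199 to 219 CPM with DMSO and overlapped.

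**Figure D3:**
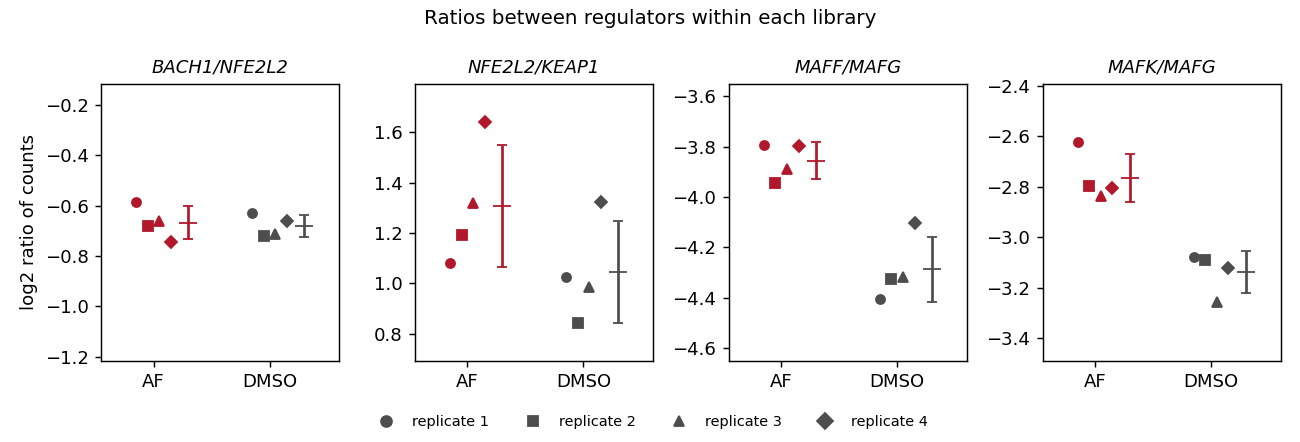
Log2 ratio of the counts of 2 regulators within each library, AF left and DMSO right, with mean ± SD (n = 4 each) and the same span of the axis in each panel. BACH1/NFE2L2 is level at -0.67 with AF and -0.68 with DMSO, NFE2L2/KEAP1 overlaps, and MAFF/MAFG and MAFK/MAFG are higher in every AF library.

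Levels between genes were compared per kilobase of exon, with lengths from GENCODE 29, which may differ from the annotation behind the counts. The length of a gene took in all its annotated exon bases, also those shared with other genes (17.6% for NFE2L2 on the same strand). The order of genes with close levels, such as MAFG and NFE2L2 with AF, is therefore uncertain. NFE2L1 was the most abundant member, at 54.2 ± 2.46 CPM per kilobase with AF and 52.5 ± 2.10 with DMSO. MAFG followed at 37.5 ± 5.34 with AF and 34.6 ± 1.63 with DMSO, and NFE2L2 at 32.4 ± 3.04 with AF and 25.4 ± 1.43 with DMSO. KEAP1 (20.8 ± 1.57 with AF and 19.6 ± 1.64 with DMSO) and BACH1 (15.8 ± 0.873 with AF and 12.3 ± 0.918 with DMSO) came next. CUL3, MAFK and MAFF were lower, at 6.95 ± 0.527, 6.45 ± 0.814 and 2.40 ± 0.225 with AF and at 6.46 ± 0.682, 4.60 ± 0.222 and 1.65 ± 0.115 with DMSO. By these lengths the order was the same in both groups. In DMSO no neighbours in that order overlapped in range, whereas with AF the ranges of MAFG and NFE2L2 overlapped, as did those of CUL3 and MAFK.

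**Figure D4:**
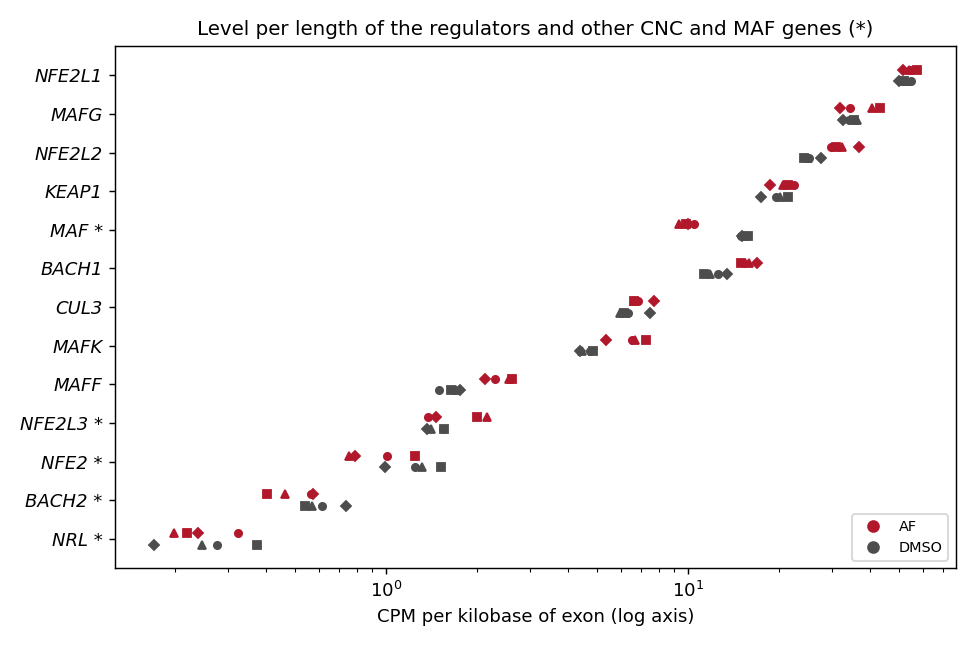
CPM per kilobase of exon (log axis) in each library, AF above DMSO in each row, for the 8 regulators and, starred, 5 other cap'n'collar and MAF genes. NFE2L1 is the highest of the regulators at about 54.2 with AF and 52.5 with DMSO, and MAFF the lowest at 2.40 and 1.65.

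Among the other genes of the same zipper families, 1 call was made, a fall, where 15.4% of all genes tested were called in either direction. Of 6 listed, 5 were tested, and 0 were called higher in edgeR, 0 also at an unadjusted p under 0.05 and 0 in DESeq2. In edgeR 1 was called lower (2 at an unadjusted p under 0.05, 1 in DESeq2). The gene called lower was MAF, which encodes a large MAF factor with an activation domain of its own. It stood at 69.2 ± 3.22 CPM with AF and 107 ± 2.55 CPM with DMSO (SD, n = 4 each) and fell by 0.62 ± 0.05 on the log2 scale (edgeR, adjusted p = 4.8e-06). Per kilobase of exon, MAF averaged 9.92 ± 0.461 CPM with AF, below BACH1, and 15.3 ± 0.366 CPM with DMSO, above BACH1. The log2 fold change of NFE2L3 was 0.26 ± 0.14 (adjusted p = 0.243), that of NFE2 -0.42 ± 0.20 (0.168) and that of BACH2 -0.30 ± 0.15 (0.182, all edgeR). Each stood under 10 CPM, and these 3 were named after their values were seen.

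Of 15 genes of the CUL3-KEAP1 ligase, its NEDD8 cycle and known competitors for KEAP1, 2 rose and 2 fell (3 and 2 without AF replicate 1). Beside this, 7.62% of all genes tested rose and 7.81% fell. SQSTM1, whose p62 protein draws KEAP1 into autophagy, stood at 296, 371, 340.2 and 252 CPM with AF, in the order of replicates 1 to 4, and at 242 ± 6.48 CPM with DMSO (SD, n = 4), which differed by 0.38 ± 0.09 on the log2 scale (edgeR, adjusted p = 0.0135). AF replicates 2 and 3 were the highest, and AF replicate 4 stood just above the DMSO range of 238 to 251 CPM. SQSTM1 also belongs to the list of ARE targets below and is counted there again. SESN2, a stress-induced sestrin, rose by 0.57 ± 0.12 on the log2 scale, and DPP3, a peptidase that binds KEAP1, fell by 0.38 ± 0.08 (edgeR, adjusted p = 0.00657 and 0.0053). The second fall, of PGAM5 (-0.28 ± 0.09, adjusted p = 0.0399), was named after its values were seen and was lost without any of 6 single libraries. The ring subunit gene RBX1 stood at -0.17 ± 0.10 on the log2 scale (edgeR, adjusted p = 0.282) and NEDD8 at 0.06 ± 0.10 (0.696), both also named after their values were seen. Among 29 other adaptors of CUL3 tested, KLHL5 (0.38 ± 0.06) and KLHL24 (0.43 ± 0.11) rose and 0 fell. At an unadjusted p under 0.05, 6 of the adaptors rose and 1 fell. In DESeq2 4 rose and 1 fell, and without AF replicate 1 the counts were 3 and 1. The KLHL24 call was lost without DMSO replicate 2 or 3 (edgeR, adjusted p = 0.0602 and 0.0529).

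Genes that control NRF2 protein without KEAP1 showed 1 call among 13, and those that process NRF1 showed 2 among 9. Calls made up 15.4% of all genes tested, 7.62% higher and 7.81% lower. BTRC, the beta-TrCP ligase gene, was higher by 0.31 ± 0.10 on the log2 scale (edgeR, adjusted p = 0.0464), a call lost without AF replicate 2, 3 or 4 or DMSO replicate 1, 2 or 3 (adjusted p = 0.0697 to 0.156), with upper-quartile factors (0.0571), with no filter on low counts (0.0897), with a block by name suffix (0.0658) or with stems summed (0.0933). DDI2, the protease that releases NRF1, had 0.24 ± 0.06 (adjusted p = 0.0173) and was lost without AF replicate 1 (0.0587), DMSO replicate 2 (0.0730) or DMSO replicate 3 (0.0591). HCFC1, a cofactor of NRF1, had -0.33 ± 0.09 (adjusted p = 0.01997) and was lost without AF replicate 3 (0.0516), DMSO replicate 2 (0.0630) or DMSO replicate 3 (0.0561). Of 35 proteasome genes, the known targets of NRF1, 0 rose (2 at an unadjusted p under 0.05, 0 in DESeq2) and 2 fell (3 and 2). Those were PSMC3 (-0.32 ± 0.07) and PSMA7 (-0.17 ± 0.05), the second lost without any of 6 libraries, among them AF replicate 1 (adjusted p = 0.0541), and with no filter on low counts (0.0968), a block by name suffix (0.0523) or stems summed (0.0632). The median log2 fold change of the proteasome list was 0.04. Without DMSO replicate 3, 1 member of it rose.

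In the list on haem supply and turnover of BACH1, 2 of 13 genes rose and 1 fell, beside 7.62% and 7.81% of all genes tested. HMOX1, the haem oxygenase gene that BACH1 represses, stood at 176, 175, 168 and 151 CPM with AF, in the order of replicates 1 to 4, against 110.0, 129, 132 and 102 CPM with DMSO in that order. Its groups were apart, and its log2 fold change was 0.50 ± 0.08 (adjusted p = 0.00071, edgeR). HMOX1 also belongs to the list of ARE targets below and is counted there again. ALAS1, the first enzyme of haem synthesis, rose by 0.70 ± 0.14 on the log2 scale (adjusted p = 0.00315, edgeR), while UROS, a later enzyme, had -0.40 ± 0.10 (0.0167), lost without AF replicate 3 (0.0546) or DMSO replicate 3 (0.0504). FBXO22, a ligase gene for BACH1, and XPO1, its nuclear exporter, had log2 fold changes of 0.05 ± 0.11 and -0.03 ± 0.12 (adjusted p = 0.796 and 0.895, edgeR) and were named after their values were seen. Of 11 coactivators and repressors tested, ATF4 rose (0.29 ± 0.07) and SMARCA4 had -0.20 ± 0.06 (adjusted p = 0.0102 and 0.0401, edgeR), the second lost in 6 fits with 1 library left out, without AF replicate 2, 3 or 4 or DMSO replicate 1, 2 or 3 (adjusted p = 0.0506 to 0.114), and with a block by name suffix (0.0509). Without AF replicate 1, 2 of this list fell.

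Most of the usual targets of the element rose with AF. Of 26 targets tested, 20 rose and 1 fell, beside 7.62% and 7.81% of all genes tested, with a median log2 fold change of 0.49. The counts were the same without AF replicate 1, and 18 to 20 rose with any single library left out, but with library totals alone as scaling 2 rose and 0 fell (12 and 1 at an unadjusted p under 0.05). NQO1, a quinone reductase gene, stood at 187 ± 15.8 CPM with AF and 103 ± 3.42 CPM with DMSO (SD, n = 4 each), a log2 fold change of 0.86 ± 0.06 that no member reached. GCLM, of glutathione synthesis, rose by 0.63 ± 0.09 and TXNRD1, the cytosolic thioredoxin reductase, by 0.40 ± 0.06 on the log2 scale. ME1, malic enzyme, rose by 0.78 ± 0.07 and ABCC3, an efflux transporter gene, by 0.65 ± 0.07 on that scale. SRXN1, at 1.97 ± 0.482 CPM with AF and 1.53 ± 0.280 CPM with DMSO, had 0.38 ± 0.22 and did not pass (adjusted p = 0.268, edgeR). The call against the majority was AKR1B1, an aldose reductase gene (-0.33 ± 0.08). The target list and its direction were known from earlier results of these data.

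The profiles of the called members over the 8 libraries were compared by the root mean square difference of log2 CPM after centring each gene on its own mean. Among the 28 pairs of members NFE2L2 and BACH1 were the closest, with a difference of 0.0486, whereas MAFF and MAFK differed by 0.114. Of 10987 candidate genes, BACH1 was the 17th nearest to NFE2L2 and NFE2L2 the 34th nearest to BACH1. MAFK was the 56th nearest to MAFF and MAFF the 105th nearest to MAFK. The 3 nearest to NFE2L2 were MAPK6 (0.0184), an atypical MAP kinase gene, FIG4 (0.0336), a phosphoinositide phosphatase gene, and ZNF426 (0.0354). BACH1 had CAMK2D (0.0228), a calmodulin-dependent kinase gene, REEP3 (0.0276) and ZNF12 (0.0319). MAFF had the glutathione transferase gene GSTM3 (0.0600), the desaturase gene FADS1 (0.0636) and the haem transporter gene SLC48A1 (0.0696). MAFK had ZNF746 (0.0411), the cytochrome P450 reductase gene POR (0.0536) and the transketolase gene TKT (0.0554). The likeness is a description over 8 libraries that share 1 treatment contrast.

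The called members kept their direction, and the uncalled ones were not called, when the processing was changed in 18 ways. The calls of the called members and the direction of the uncalled ones held in 17 of these. Library totals alone as scaling, with the ribosomal RNA of AF replicate 1 counted in, ended all 4 calls, leaving 0 by adjusted p and 1 (MAFF) at an unadjusted p under 0.05, and turned the log2 fold changes of NFE2L1, KEAP1, CUL3 and MAFG slightly negative. Under it the median log2 fold change over all genes shifted by -0.145. Relative to this shift NFE2L2 stood at 0.36, BACH1 at 0.36, MAFF at 0.55 and MAFK at 0.48, and NFE2L1, KEAP1, CUL3 and MAFG at 0.04 to 0.13. A change of scaling moves all genes by a similar amount. Relative values near the reported ones therefore follow from the arithmetic and are no further support for the calls. Of the genes named from the lists by the stated rule, NQO1, ME1, MAF, DPP3 and ALAS1 kept their calls under this scaling and the other called ones lost them.

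**Figure D5:**
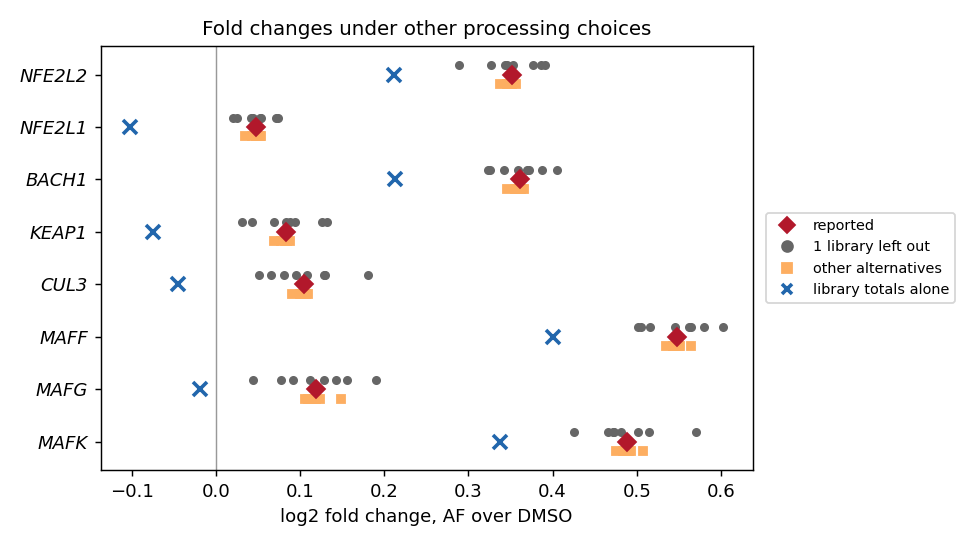
Log2 fold change of AF over DMSO for each regulator as reported (diamond), with 1 library left out (circles), under other alternatives (squares) and with library totals alone (cross). NFE2L2, BACH1, MAFF and MAFK stay above 0 throughout, whereas NFE2L1, KEAP1, CUL3 and MAFG turn negative with library totals alone, between -0.10 and -0.019.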

How the data were processed

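The authors deposited 1 table of unnormalised whole-number counts, 1 row per gene, in which each column was matched to a sample by its title. STAR 2.6.1d, featureCounts, Subread 1.6.3 and GRCh38 are named per the submitters' processing notes, and the libraries were stranded and poly-A selected from 250 ng of RNA, per the labels' protocols. Not given in the sources used here are the annotation, strand setting and handling of multi-mapped reads, so reads of overlapping genes are uncertain.

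The deposited counts were fitted with edgeR 4.0.16 in R 4.3.3: filterByExpr defaults, TMM factors, glmQLFit and glmQLFTest, two-sided, AF over DMSO with all 8 libraries and no block, and Benjamini-Hochberg adjustment over the 17535 genes tested. All 8 members passed the filter. Standard errors were taken as the log2 fold change over the root of the F statistic. Profile likeness used log2 CPM with a prior count of 2 and genes of at least 5 CPM. Library depth ranged between 19336073 and 32325981 counts, and the biological coefficient of variation was 12.8%. Counts carry no molecular identifiers, and errors cover the spread between libraries.

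The members, gene lists and tests were chosen with earlier results of these data known, and 1 gene of a list was left out and is not reported here. Genes named beside the members were 6 fixed ARE genes, up to 3 called genes of smallest p per list plus the first called against the majority, and the 3 nearest profiles of each called member. Others are marked where named. Alternatives were DESeq2 1.42.0, other scalings and filters, blocks, libraries of a shared name stem summed, and each library left out. No libraries agreed within sampling noise. The lowest chi-square per degree of freedom was 2.95, for DMSO replicates 2 and 3, which do not share a name stem. Other such pairs within a group gave 4.39 (AF replicates 2 and 3) and 4.95 (DMSO replicates 1 and 4). Higher values came from DMSO replicates 1 and 3 (8.44), DMSO replicates 2 and 4 (10.8) and AF replicates 2 and 4 (20.2). Pairs that share a stem gave 7.76 (DMSO replicates 1 and 2), 9.92 (DMSO replicates 3 and 4) and 12.0 (AF replicates 3 and 4). AF replicates 1 and 2 also share a stem and gave 733, with the ribosomal RNA of AF replicate 1 counted in. AF replicate 1 gave 680 with AF replicate 3 and 605 with AF replicate 4, which do not share its stem. What the stems mark was not tested. Gene positions and lengths came from GENCODE 29 and promoters from RefSeq.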

Additional observations from a re-analysis of the deposited data

Results flagged for a closer look

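In 34 groups of 4 libraries looked at, 3 values lay far from the other 3 of their group by Dixon's gap, and chance alone flags about 1 group in 20. AF replicate 1 had 34.8% ribosomal RNA, against 0.852% in the nearest AF library. The log2 ratio of KEAP1 to CUL3 was -0.34 in AF replicate 4, against 0.03 in the nearest AF library. In DMSO replicate 4 the log2 ratio of NFE2L2 to NFE2L1 was -0.83, against -1.05 in the nearest DMSO library.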

How the results depend on the processing

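Of 259 recomputed values for the members, their ratios, their levels and the counts of calls, 241 were labelled as unchanged. Fold changes had to keep their direction and side of the threshold, and ratios and levels to stay within the spread. For counts of calls the limit was a looser fold limit, by which 2093 called genes (DMSO replicate 1 left out) against 2705 was labelled unchanged. With library totals alone the called members fell to 0 of 8 and the called genes to 883, of which 20.7% were higher, against 1336 higher of 2705 with TMM. The cause was not tested. The log2 fold change of NFE2L2 was then 0.21 (adjusted p = 0.592), with BACH1 at 0.21 (0.587), MAFF at 0.40 (0.288) and MAFK at 0.34 (0.389), and NFE2L1 at -0.10, KEAP1 at -0.075, CUL3 at -0.045 and MAFG at -0.019. The same scaling put the DMSO means of NFE2L1, NFE2L2, MAFG and MAFK at 324.6, 162, 191.6 and 21.8 CPM. The replicate block raised the called genes to 4188 and kept the called members at 4. With that block the SE of the NFE2L2 log2 fold change was 0.044, against 0.067 without it. The numbers were not taken as pairs in the reported fit, and whether they mark pairs was not tested. Same-numbered libraries correlated in their deviations from the group means at 0.029 to 0.19, under 0.1 for replicates 1 and 3. Replicates 1, 2 and 4 were each the best match of their own number in both directions, and replicate 3 was in neither. Leaving out single libraries gave 1616 to 2964 called genes, the lowest being 1616 (DMSO replicate 2 left out), 1648 (DMSO replicate 3) and 1660 (AF replicate 3), and 4 called members each time. Counts of 2 or fewer in the lists of ligase, NRF1, BACH1, coactivator and proteasome genes moved with single libraries. The 95% intervals of NFE2L1, KEAP1, CUL3 and MAFG include 0 and reach up to log2 fold changes of 0.18, 0.23, 0.26 and 0.30.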

Other observations

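Libraries numbered 4 shared features among the members in both groups, although no label gives a batch. AF replicate 4 had the most NFE2L2 (219 CPM), BACH1 (131 CPM) and CUL3 (88.9 CPM) of the AF libraries, and DMSO replicate 4 the most of the DMSO libraries (164, 104 and 85.9 CPM). The same libraries had the least KEAP1 (70.3 CPM with AF and 65.5 CPM with DMSO), NFE2L1 (299.6 CPM with AF and 291 CPM with DMSO), MAFG (166 CPM with AF and 170.1 CPM with DMSO) and MAFK (23.8 CPM with AF and 19.5 CPM with DMSO). MAFF was the exception, lowest in AF replicate 4 (12.0 CPM) and highest in DMSO replicate 4 (9.90 CPM). These features were seen in the data and were not tested.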
